A study of Mus musculus with 7 samples.

Results

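The replication-dependent histone genes of the mouse are the Hist1, Hist2, Hist3 and Hist4 genes, which encode the histones used to package newly copied DNA. Members were all genes whose name in the deposited TPM table begins with Hist1h, Hist2h, Hist3h or Hist4h, which gave 70 of 54532 genes. They comprise 6 linker histone H1 genes, 20 H2A genes, 19 H2B genes, 12 H3 genes and 13 H4 genes. Of these, 67 have a coding transcript and 3 are annotated as pseudogenes (Hist1h2aj, Hist1h2al and Hist3h2bb-ps). By name, 56 are Hist1 genes on chromosome 13, 10 are Hist2 genes on chromosome 3, 3 are Hist3 genes on chromosome 11, and Hist4h4 lies alone on chromosome 6. The Hist1 pseudogene Hist1h2al (chr13:51202727-51203065, minus strand) lies far from the other Hist1 genes.

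Messenger RNA was sequenced from cells that were sorted by fluorescence (FACS) and pooled from the olfactory epithelia of postnatal mice. OMP-GFP mice gave the mature olfactory sensory neurons at postnatal days 2, 7 and 16 (P2, P7 and P16), in 3 libraries. Neurog1-GFP mice gave the intermediate progenitor cells, with 4 libraries taken at days 3, 7, 9 and 16. Each age gave 1 library per population, so the ages stand in for replicates, and population and mouse line cannot be told apart. GFP here follows 1 gene per line, so each pool is defined by that reporter and the sort, and the labels do not give the sex or the number of the animals. The libraries held 24203965 to 25930727 counts on genes. Of the markers of the sorted types, 9 of 10 mature neuron genes were called higher and 6 of 6 progenitor genes lower in mature neurons. Of all genes tested, 28.8% were called higher and 30.0% lower (edgeR, adjusted p under 0.05). Omp itself was not called, with a mean level of 1936 ± 442 in mature neurons and 2566 ± 632 in progenitors (CPM, library-scaled counts; SD, n = 3 and n = 4; log2 fold -0.41, edgeR adjusted p = 0.179). The 10 mature neuron markers, Omp among them, summed to 18350 to 26130 CPM in mature neurons and 6590 to 9814 CPM in progenitors. The 6 progenitor markers summed to 35.1 to 77.2 CPM in mature neurons and 936 to 1750 CPM in progenitors. The progenitor pools thus also carried mature neuron messengers, and their part in the histone levels was not tested.

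Nucleosomes are built from the core histones H2A, H2B, H3 and H4, and linker histone H1 sits on the DNA between them. Most messengers of these genes are made in S phase and end in a conserved hairpin in place of a poly(A) tail, which the stem-loop binding protein SLBP recognises. Some of the genes can also be read through to a downstream poly(A) signal, a form that has been described in differentiated cells, and a library made by poly(A) selection captures that form preferentially. Cells that have left the cell cycle exchange part of their histones for variants made independently of replication.

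The 3′ ends of the annotated transcripts carry the features that bear on such a library, so a few are shown here, read 5′ to 3′ on the transcript strand (GENCODE M21, GRCm38). The hairpin was searched after the stop codon as a stem of GGNNNT, a loop of TTNN and the reverse complement of the stem, on the transcript strand alone. It was found in 43 members, beginning 22 to 59 bases after the stop codon. A further 18 coding members had no hairpin but at most 100 annotated bases after the stop codon. Some of these, Hist1h4k and Hist2h2bb among them, had no annotated bases there, so the search could not find a hairpin in them. For comparison, all annotated transcripts of protein-coding genes with at least 100 bases were searched over their whole length, not only after the stop codon. The hairpin was found in 99 of 101570 (0.097%), 46 of them transcripts of these members. The capitals mark the hairpin in the following 6 genes, each of which is described below.
Hist3h2ba: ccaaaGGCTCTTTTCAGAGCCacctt
Hist1h1c: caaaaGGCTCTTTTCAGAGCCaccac
Hist1h1e: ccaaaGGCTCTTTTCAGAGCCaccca
Hist1h2bm: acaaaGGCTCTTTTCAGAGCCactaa
Hist2h4: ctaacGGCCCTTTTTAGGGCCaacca
Hist1h4j: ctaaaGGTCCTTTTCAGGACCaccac
The hairpin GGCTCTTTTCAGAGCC was shared by 25 members of the H1, H2A, H2B and H3 classes. A stem with GGCCCT was confined to H4 genes among the members, in 7 of them as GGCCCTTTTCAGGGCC and in Hist1h4i and Hist2h4 as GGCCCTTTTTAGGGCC. Hist2h2be, the member with the highest TPM, had no such hairpin in 2192 annotated bases after its stop codon. This says only that those letters are not in that stretch.

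A poly(A) signal, AATAAA or ATTAAA, was searched in the last 50 bases of the annotated transcript, on the transcript strand. It was found in 16 of 67 coding members, with a single transcript each, and in 38.9% of the transcripts of protein-coding genes. The latter were not limited to coding transcripts or to a single one per gene, so the shares are of unlike units. Where the annotated transcript ends at the stop codon, as for Hist1h4k and Hist2h2bb, the search could not reach a signal further downstream. The capitals mark the signal in the last 30 annotated bases of 4 members at the upper end of the levels.
Hist2h2be: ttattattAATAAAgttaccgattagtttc
Hist3h2ba: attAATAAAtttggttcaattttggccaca
Hist1h1c: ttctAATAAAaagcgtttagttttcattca
Hist1h4j: cggatgcaataaaattctgAATAAAactgc
Each of these except Hist2h2be also carries the hairpin upstream, so the annotation runs past it.

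The histone genes overlap each other in sequence, and the count and TPM tables treat them differently. Of the 70 members, 34 share at least 50% of their 50-base stretches with transcripts of other genes. The count table held fewer than 10 counts over the 7 libraries for 19 members and 0 counts for 6, and 3 of these 6 (Hist1h2bq, Hist1h2br and Hist1h2ap) still had a mean TPM of at least 1. Hist2h2aa2, an H2A gene all of whose 50-base stretches (100%) recur elsewhere, was the clearest case. It stood at 194, 265 and 295 TPM at P2, P7 and P16 in mature neurons, against 234, 263, 287 and 259 TPM in progenitors at P3, P7, P9 and P16. It had 2 counts in all 7 libraries together. The TPM of such genes depends on how shared reads were divided, so their levels are uncertain. Exons of 23 members overlap an antisense gene and those of 7 overlap a gene read in the same direction. Reads of such pairs may be mixed, as the strand setting used in counting is not known from the sources used here.

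In these poly(A) libraries the summed TPM of the histone genes overlapped between mature neurons and progenitors. A single gene made up a larger share of it in mature neurons. Messengers that end in the hairpin without a poly(A) tail are captured poorly, so the sums do not measure total histone messenger. The summed TPM of the 70 members was 1546, 1893 and 1891 at P2, P7 and P16 in mature neurons, against 1371, 1535, 1572 and 1630 in progenitors at P3, P7, P9 and P16. All but the P2 mature library lay above the progenitors. Hist2h2be made up 48.9%, 57.7% and 55.9% of it in mature neurons and 29.7%, 32.7%, 32.9% and 34.1% in progenitors. Without Hist2h2be the other 69 members summed to 808 ± 23.0 TPM in mature neurons and 1032 ± 48.1 TPM in progenitors (SD, n = 3 and n = 4), and the populations no longer overlapped. By class, the H1 sum was lower in mature neurons (54.1 ± 8.65 TPM, against 79.2 ± 5.65 TPM in progenitors), as was the H4 sum (51.4 ± 4.71 TPM, against 93.2 ± 11.4 TPM in progenitors), with no overlap in either. The H2A and H3 sums overlapped between the populations. These are sums of uncertain parts, and in sorted pools fewer cells of a type and less RNA per cell cannot be told apart.

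**Figure D1:**
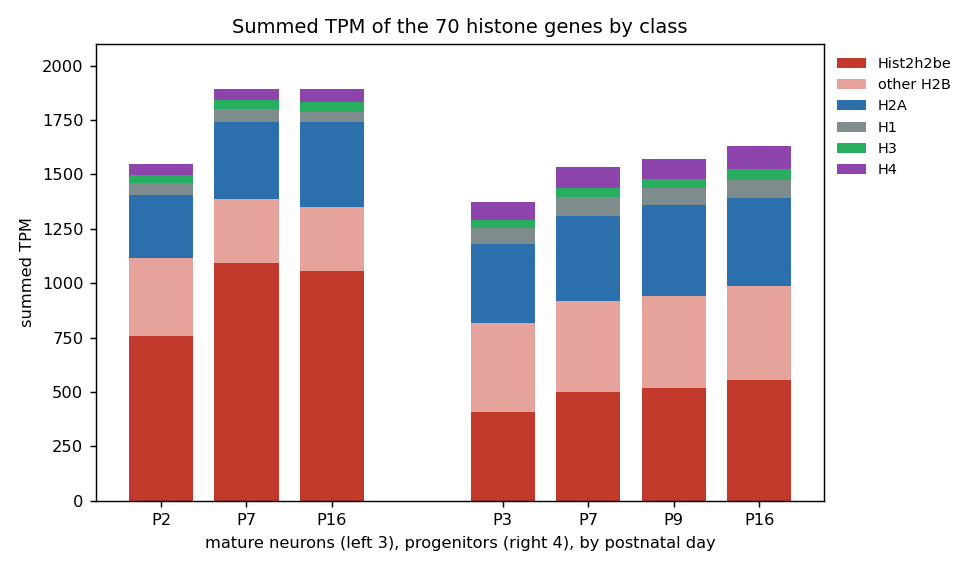
Bars give the summed TPM of the 70 histone genes in each library, split into Hist2h2be, the other H2B genes, H2A, H1, H3 and H4; the 3 mature neuron libraries are on the left and the 4 progenitor libraries on the right, each by postnatal day. The Hist2h2be segment reaches 757 to 1092 TPM in mature neurons and 407 to 555 TPM in progenitors, while the totals of the populations overlap.

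Most members were too low for the count test. Of the 70, 26 passed edgeR's filter on low counts, 36 had a mean TPM of at least 1, 16 of at least 10 and 3 of at least 100. Among the 26 tested, 4 were called higher in mature neurons (15.4%, against 28.8% of all 17975 genes tested) and 9 were called lower (34.6%, against 30.0% of all genes tested; edgeR, adjusted p under 0.05). The share called higher lies below that of all genes, and the share called lower is near it. The median log2 fold of the 26 was -0.50, beside 0.01 for all genes tested. The CPM values of the populations did not overlap for 5 members that were higher in mature neurons (19.2%, against 29.2% of all genes tested) and for 10 that were lower (38.5%, against 32.2%). Since a gene can pass the filter through the population where it is high, these counts describe the 26 and not the 70.

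The TPM table gave a more one-sided split. Of 42 members tested by limma on log2(TPM + 1), 2 were called higher in mature neurons (4.76%, against 22.5% of 17290 genes) and 17 lower (40.5%, against 35.2%). The median of all genes in that fit was -0.11, beside -0.03 without the TPM filter and 0.01 on counts, so a TPM fold near -0.11 is no change relative to the others tested. The median of the 42 members was -0.41. Both tables called Hist2h2be and Hist1h2ba higher, and 8 members were called lower by both. The 5 called lower on TPM alone for want of counts were Hist1h3h, Hist1h3g, Hist1h4n, Hist1h2ap and Hist1h2bj, which are named here because of their values.

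**Figure D2:**
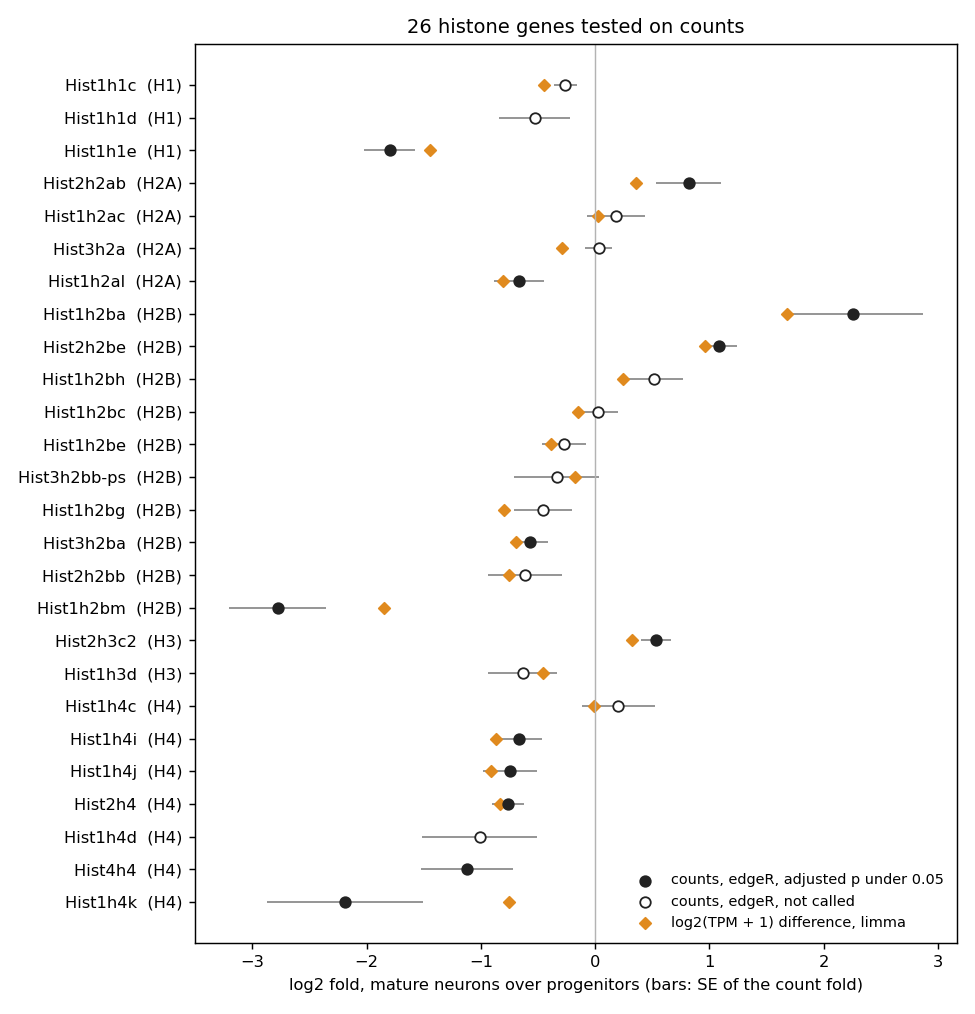
Circles give the log2 fold on counts (mature neurons over progenitors) with its SE for the 26 tested histone genes, ordered by class; filled circles have an edgeR adjusted p under 0.05, and diamonds give the log2(TPM + 1) difference from limma. Hist1h2ba and Hist2h2be lie to the right at 2.25 and 1.09, Hist1h2bm, Hist1h4k and Hist1h1e lie to the left at -2.78, -2.19 and -1.80, and 5 of the 7 H4 genes are filled on the left.

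Among the linker histones, Hist1h1c carried nearly all of the TPM, and Hist1h1e showed the larger difference. Hist1h1c, the H1 gene with the highest level (chr13:23738808-23740367, plus strand), stood at 54.6, 58.0 and 42.5 TPM at P2, P7 and P16 in mature neurons, against 65.6, 76.5, 67.1 and 72.0 TPM in progenitors at P3, P7, P9 and P16. All 3 mature neuron libraries lay below all 4 progenitor libraries. On counts its log2 fold of -0.26 (SE 0.10) missed the threshold in edgeR (adjusted p = 0.0551), whereas limma called it lower on log2(TPM + 1), at -0.45 (adjusted p = 0.00953). It was also called on counts when the P7 mature library was left out (-0.33, adjusted p = 0.0403).

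Hist1h1e, another H1 gene (chr13:23620629-23622558, minus strand), had 38, 34 and 32 counts at P2, P7 and P16 in mature neurons, against 101, 139, 155 and 151 counts in progenitors at P3, P7, P9 and P16. Mature neurons were low in every library, and the log2 fold was -1.80 (SE 0.22, edgeR adjusted p = 0.00022). Its exons overlap those of Hist1h2be and Gm11398 on the same strand, and 32.0% of its 50-base stretches recur in other transcripts. Hist1h1d was not called (log2 fold -0.53, SE 0.31, adjusted p = 0.177 in edgeR). The rest of the class was scarce. Hist1h1b had 1 to 3 counts in mature neurons and 8 to 20 in progenitors. Hist1h1a had 0 to 5 counts in mature neurons and 5 to 13 in progenitors, and the testis gene Hist1h1t had 0 to 1 in mature neurons and 0 to 2 in progenitors.

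Of 4 H2A genes tested on counts, edgeR called 1 higher (25.0%, against 28.8% of all genes tested) and 1 lower (25.0%, against 30.0%). Both shares are near those of all genes. On TPM limma called 3 of 10 lower (30.0%, against 35.2%) and 0 higher (0.0%, against 22.5%). Hist2h2ab, an H2A gene of the Hist2 cluster, had 22, 38 and 21 counts in mature neurons, against 15, 18, 17 and 19 counts in progenitors. The populations did not overlap, by a margin of few counts. Its log2 fold was 0.82 (SE 0.29, edgeR adjusted p = 0.0377). On TPM the populations overlapped, at 2.04, 3.46 and 1.66 in mature neurons and 1.23, 2.03, 0.88 and 2.52 in progenitors, and the fold of 0.35 was not called (limma adjusted p = 0.295). The call on counts was lost without the P7 mature library (0.49, adjusted p = 0.177), without any 1 of the 4 progenitor libraries (adjusted p between 0.0588 and 0.0805) and in DESeq2 (adjusted p = 0.0834). Exons of Hist2h2ab overlap those of the antisense gene Gm15444, so reads of the pair may be mixed.

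Hist1h2al, annotated as a processed pseudogene on chromosome 13, was the other called member of the H2A class. It had 46, 35 and 47 counts in mature neurons, against 68, 67, 96 and 76 in progenitors, with no overlap. The log2 fold was -0.67 (SE 0.22, edgeR adjusted p = 0.0284), and -0.81 on log2(TPM + 1) (limma adjusted p = 0.000516). Leaving out the P2 or P7 mature library or the P9 or P16 progenitor library ended the call on counts (adjusted p between 0.0516 and 0.106), and 67.6% of its 50-base stretches recur in other transcripts. Exons of Hist1h2al also overlap those of the antisense gene Gm44341.

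Hist3h2a and Hist1h2ac, the H2A genes with the most counts, were not called. Hist3h2a, from the Hist3 cluster, had 762, 707 and 762 counts in mature neurons, against 889, 749, 702 and 954 in progenitors, which overlap. Its log2 fold was 0.03 on counts (SE 0.12, edgeR adjusted p = 0.843) but -0.29 on log2(TPM + 1), where limma called it lower (adjusted p = 0.0219). Its direction therefore depends on the table, and it shares exon sequence with Trim17 on the same strand. Hist1h2ac had 348, 310 and 544 counts in mature neurons, against 293, 331, 458 and 517 in progenitors, with the P16 libraries high in both (log2 fold 0.18, SE 0.26).

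The H2B genes held both the highest level and the largest differences in each direction. Hist2h2be encodes H2BE, known in mice as an H2B variant of olfactory sensory neurons (chr3:96221119-96223738, plus strand, a single exon). It stood at 757, 1092 and 1058 TPM at P2, P7 and P16 in mature neurons, against 407, 501, 517 and 555 TPM in progenitors at P3, P7, P9 and P16. Every mature neuron library was above every progenitor library, and the P2 and P3 libraries were the lowest of their populations. In CPM it averaged 1656 ± 318 in mature neurons and 780 ± 93.8 in progenitors (SD, n = 3 and n = 4). The log2 fold was 1.09 (SE 0.16, edgeR adjusted p = 0.00051) and ran from 0.96 to 1.24 over the alternatives tried, all of them called.

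The reads of Hist2h2be are separable from those of its relatives. None of its 50-base stretches (0.0%) recurs in another annotated transcript, and its 378 coding bases are 83.3% (Hist2h2bb) to 88.4% (Hist1h2bn) identical to those of 15 other H2B genes of the same length. It had 17720 to 43557 counts per library, so counting error is small beside the spread between libraries. Without it, the other 18 H2B genes summed to 315 ± 36.3 TPM in mature neurons and 421 ± 10.3 TPM in progenitors (SD, n = 3 and n = 4), with no overlap.

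**Figure D3:**
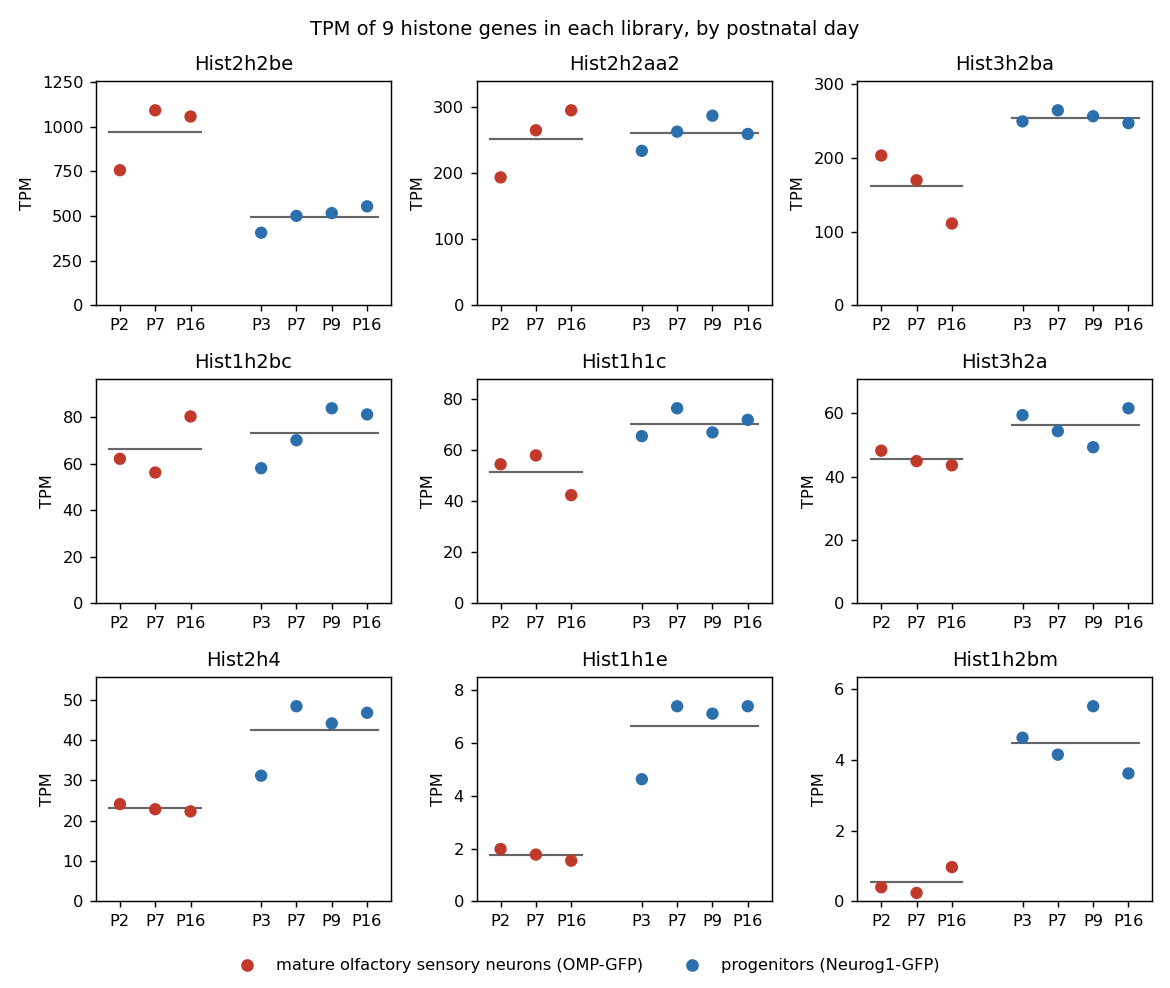
Points give the TPM of 9 histone genes in each library, with mature neurons (OMP-GFP) left of progenitors (Neurog1-GFP), each by postnatal day; grey lines are population means and every axis starts at 0. Hist2h2be is higher in every mature neuron library (757 to 1092 TPM) than in any progenitor library (407 to 555 TPM), Hist3h2ba, Hist1h1c, Hist3h2a, Hist2h4, Hist1h1e and Hist1h2bm are lower in all of them on this scale, and Hist2h2aa2 and Hist1h2bc overlap.

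Hist3h2ba, an H2B gene of the Hist3 cluster (chr11:58948920-58949533, plus strand), went the other way. It stood at 203, 170 and 111 TPM at P2, P7 and P16 in mature neurons, against 250, 265, 257 and 247 TPM in progenitors at P3, P7, P9 and P16. The progenitor libraries were nearly level, and the P16 mature library was the lowest of all. The log2 fold was -0.57 on counts (SE 0.16, edgeR adjusted p = 0.0158), and without the P16 mature library it was -0.38 (adjusted p = 0.00691). Whether the age slopes of the populations differ was not tested.

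Hist1h2bm, a further H2B gene, had 2, 2 and 4 counts in mature neurons, against 25, 15, 29 and 17 counts in progenitors, with no overlap. The log2 fold was -2.78 (SE 0.42, edgeR adjusted p = 0.000696). Hist1h2ba, which encodes a testis H2B, showed the reverse pattern at a similarly low level. It had 18, 12 and 25 counts in mature neurons, against 9, 1, 1 and 6 counts in progenitors (log2 fold 2.25, SE 0.61, edgeR adjusted p = 0.0127). The call held without any single library (adjusted p between 0.00706 and 0.0328), and 38.2% of its 50-base stretches recur elsewhere.

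Hist1h2bc, the H2B gene next in TPM after Hist3h2ba, did not differ detectably. It had 801, 714 and 1052 counts in mature neurons, against 780, 851, 1078 and 1088 in progenitors (log2 fold 0.03, SE 0.17, edgeR adjusted p = 0.894). Hist2h2bb had 55, 22 and 32 counts in mature neurons, against 49, 66, 69 and 67 in progenitors. The P2 mature library overlaps the progenitors, and without it edgeR called Hist2h2bb lower (-1.03, adjusted p = 0.0215, against -0.61 and 0.132 with it). Limma on log2(TPM + 1) called it lower as well, at -0.75. Hist1h2bq and Hist1h2br, which share 97.3% and 88.5% of their 50-base stretches, had 0 counts throughout but 6.21 to 26.8 and 7.27 to 27.2 TPM, and overlapped between the populations. Their counts of 0 therefore set no limit on their level. Hist1h2bj had 0 counts in all mature neuron libraries, each of which allows up to 3 by counting error alone, and 4, 4, 4 and 6 counts in progenitors, and 59.4% of its 50-base stretches recur elsewhere.

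Hist2h3c2 held most of the counts of the H3 class. This gene of the Hist2 cluster had 410, 428 and 486 counts in mature neurons, against 294, 332, 387 and 368 in progenitors, with no overlap. The log2 fold was 0.53 (SE 0.13, edgeR adjusted p = 0.00768) and held without any single library (0.45 to 0.59). On log2(TPM + 1) it was 0.32 and not called (limma adjusted p = 0.0611). Of the 50-base stretches of Hist2h3c2, 63.5% recur in other transcripts. Its neighbour Hist2h3c1 was listed at 0 in both tables, and all of its 50-base stretches (100%) recur elsewhere. The other tested H3 gene, Hist1h3d, was not called (log2 fold -0.63, SE 0.30, edgeR adjusted p = 0.103).

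Of the 13 H4 genes, which encode the same core histone from separate loci, 7 were tested on counts, and edgeR called 5 of these lower in mature neurons (71.4%, against 30.0% of all genes tested). On TPM limma called 5 of 9 lower (55.6%, against 35.2%). Hist2h4, the H4 gene with the highest level (chr3:96261682-96263311, minus strand), had 620, 571 and 585 counts in mature neurons, against 860, 1227, 1195 and 1254 in progenitors. Mature neurons were level and below every progenitor library. The log2 fold was -0.76 (SE 0.14, edgeR adjusted p = 0.00201), and -0.84 on log2(TPM + 1). It shares 1.0% of its 50-base stretches, so its reads are nearly its own.

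The other called H4 genes were lower in level and less settled. Hist1h4i had 82, 75 and 84 counts in mature neurons, against 135, 134, 119 and 187 in progenitors (log2 fold -0.66, SE 0.20, edgeR adjusted p = 0.0206). Hist1h4j had 65, 73 and 112 counts in mature neurons, against 130, 147, 171 and 184 in progenitors (log2 fold -0.74, SE 0.24, edgeR adjusted p = 0.0257). Neither overlapped between the populations. Leaving out the P2 or P7 mature library ended the call of Hist1h4i (adjusted p 0.0524 and 0.0724) and of Hist1h4j (0.0881 and 0.0915), and the P9 or P16 progenitor library also ended that of Hist1h4j (0.0597 and 0.0627). On TPM limma called both lower, at -0.87 and -0.92.

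Hist1h4k and Hist4h4 rest on few counts. Hist1h4k had 3, 0 and 4 counts in mature neurons, against 6, 11, 16 and 17 in progenitors (log2 fold -2.19, SE 0.69, edgeR adjusted p = 0.0236), and without the P2 mature library it was not called (-2.39, adjusted p = 0.0518). On TPM the populations overlapped and the fold was -0.76 (limma adjusted p = 0.0356), and 71.5% of its 50-base stretches recur elsewhere. Hist4h4 had 11, 23 and 7 counts in mature neurons, against 40, 39, 28 and 28 in progenitors (log2 fold -1.12, SE 0.40, edgeR adjusted p = 0.0396). Its call held without the P7 mature library (-1.72, adjusted p = 0.00746) and without the P16 progenitor library. It was lost without any 1 of the other 5 libraries (adjusted p between 0.0509 and 0.121). Hist1h4c and Hist1h4d were tested and not called, at 0.20 (SE 0.32) and -1.01 (SE 0.50).

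Grouped by name, the Hist1 and Hist3 genes summed to less in mature neurons, and the sum of the Hist2 genes followed Hist2h2be. Of 17 tested Hist1 genes, 1 was called higher (5.88%, against 28.8% of all genes tested) and 6 lower (35.3%, against 30.0%). The share called lower is near that of all genes. Of 5 tested Hist2 genes, edgeR called 3 higher (Hist2h2be, Hist2h3c2 and Hist2h2ab) and 1 lower (Hist2h4). Of all genes tested, it called 28.8% higher and 30.0% lower. On TPM limma called 1 of 8 Hist2 genes higher (12.5%, against 22.5% of all genes) and 2 lower (25.0%, against 35.2%). Both TPM shares lie below those of all genes. The Hist1 genes summed to 267 ± 32.1 TPM in mature neurons and 356 ± 26.6 TPM in progenitors (SD, n = 3 and n = 4). The Hist3 genes, mostly Hist3h2ba and Hist3h2a in level, summed to 212 ± 49.5 TPM in mature neurons and 316 ± 6.35 TPM in progenitors. Both sums were lower in mature neurons without overlap, that of the Hist1 genes also without Hist1h2al. The sum of the Hist2 genes, 1298 ± 232 TPM in mature neurons and 854 ± 92.8 TPM in progenitors, was higher without overlap. Without Hist2h2be the other 9 Hist2 genes summed to 273 to 373 TPM in mature neurons and 311 to 390 TPM in progenitors, which overlap. No test compared the 3 groups of genes with each other.

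No member passed the test for a change with age. With population in the model, edgeR called 0 of 26 members and 0 of all 17975 genes (0.00%) for a slope on the log2 of the postnatal day. At an unadjusted p under 0.05 there were 6 members (23.1%, against 20.8% of all genes), 5 with a positive slope and 1, Hist3h2ba, with a negative slope (-0.16 per doubling of age, SE 0.05). Hist2h2be had the smallest p among the members, with a slope of 0.18 log2 units per doubling of age (SE 0.04, edgeR adjusted p = 0.0699). DESeq2 called 2 of the 26 members, Hist2h2be (0.19) and Hist1h2ac (0.27), and 1500 of the same 17975 genes. The share of members called is near that of all genes. Hist2h2be and Hist1h2ac were also called by edgeR when the P7 mature library was left out, with 986 genes called in all.

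Among members with a coding transcript, those annotated with a long 3′ end tended to have the higher levels. The 31 members with over 100 annotated bases after the stop codon had a median of 4.54 TPM (mean over 7 libraries), beside 0.78 TPM for the 36 with at most 100. Of the 16 members at 10 TPM or more, 14 belong to the long kind, with Hist2h2bb and the pseudogene Hist1h2al as the exceptions. Of these 14, Hist2h2aa2 passes that length narrowly, with 109 bases after the stop codon and 35 past the hairpin, and had 2 counts in all, and Hist1h2bq and Hist1h2br had no counts, so their TPM is uncertain. Spearman's rho between that length and the mean TPM was 0.29 over the 67 coding members, which share libraries and near-identical sequence. The 16 members with a poly(A) signal in the last 50 annotated bases had a median of 11.5 TPM, beside 0.923 TPM for the 51 without one. Members at 10 TPM or more also occur without a signal, Hist1h2bc among them. Hist2h2bb and others of the short kind have no annotated bases after the stop codon, so their 3′ ends may be longer than annotated. Some of the long kind are spliced, with 2 exons in Hist1h2bc and 3 in Hist1h2bq and Hist1h2br.

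**Figure D4:**
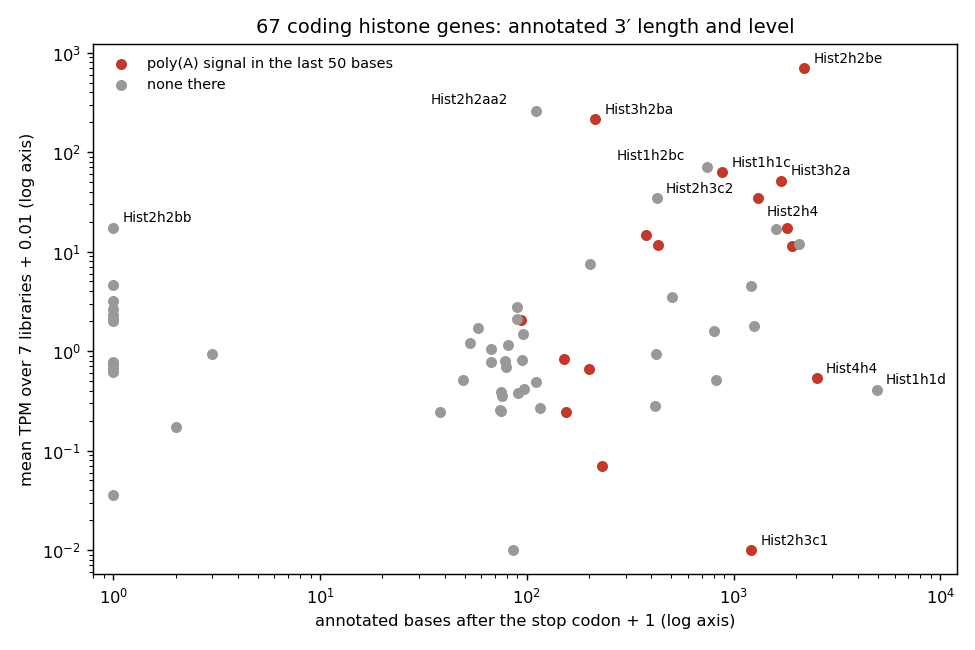
Each point is 1 of the 67 coding histone genes, placed by its annotated bases after the stop codon (plus 1, log axis) and its mean TPM over the 7 libraries (plus 0.01, log axis); red points carry AATAAA or ATTAAA in the last 50 annotated bases. Members with over 100 bases after the stop codon have a median of 4.54 TPM and the others 0.78 TPM, with Hist2h2be at the top of the plot.

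The genes around the histone genes were read from 4 lists. Of 11 tested histone genes outside the clusters, whose products are deposited independently of replication or serve special sites, 7 were called lower in mature neurons by edgeR (63.6%, against 30.0% of all genes tested; median log2 fold -0.51). H1f0, a linker histone of differentiated cells, was among these, at 131 ± 30.3 in mature neurons and 395 ± 73.7 in progenitors in CPM (log2 fold -1.59, SE 0.20). Cenpa, the centromeric H3, had a log2 fold of -2.53 (SE 0.26), H1fx one of -1.95 (SE 0.16), H2afv one of -1.37 (SE 0.14) and H2afx, the H2A of DNA damage sites, one of -1.31 (SE 0.16). Of the genes for the replication-independent form of H3, H3f3a was called lower (log2 fold -0.51, SE 0.10, edgeR adjusted p = 0.00217; -0.74 on log2(TPM + 1), limma adjusted p = 0.000561). H3f3a averaged 24.6 CPM but 1233 TPM in mature neurons, and 34.9 CPM but 2057 TPM in progenitors. Its counts may therefore hold only a part of its reads, and its exons overlap the antisense genes Gm17275 and H3f3aos. H3f3b averaged 765 ± 29.6 in mature neurons and 861 ± 23.5 in progenitors in CPM (SD, n = 3 and n = 4), with no overlap. Its log2 fold of -0.17 was not called on counts (edgeR adjusted p = 0.0883), while limma called it lower on log2(TPM + 1), at -0.27 (adjusted p = 0.0162).

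Of 20 tested genes for histone transcription and messenger processing, 13 were called lower (65.0%, against 30.0% of all genes tested) and 1 higher (5.0%, against 28.8%; edgeR, median -0.34). E2f2, a transcription factor of S phase entry, led these at -2.03 (SE 0.22), while Srrt, Casp8ap2 and Eri1, which act in histone messenger maturation or decay, lay between -0.58 and -0.49. Slbp did not differ detectably, at 40.4 ± 4.25 in mature neurons and 41.2 ± 4.13 in progenitors in CPM (SD, n = 3 and n = 4; log2 fold -0.03). Of 20 histone chaperones, edgeR called 10 lower (50%, against 30.0% of all genes tested) and 3 higher (15%, against 28.8%). Their median log2 fold was -0.26. The calls in both directions together are near in share to the 58.8% of all genes called, but more of them were lower. Nasp, a carrier of H3 and H4, stood at 57.5 ± 12.2 in mature neurons and 139 ± 12.6 in progenitors in CPM. Hjurp, the chaperone of CENPA, was at 497 ± 36.7 in mature neurons and 104 ± 4.12 in progenitors in CPM (log2 fold 2.26, SE 0.07), opposite in direction to Cenpa itself. Of 25 S-phase genes, edgeR called 18 lower (72.0%, against 30.0% of all genes tested), with a median log2 fold of -1.18. Ccna2 was at -2.04, Mcm7 at -1.87, Gins1 at -1.82 and Rrm1 at -1.24. The 25 S-phase genes summed to 252 to 364 in mature neurons and 537 to 794 in progenitors (CPM). Slbp is in both the processing and the S-phase list.

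**Figure D5:**
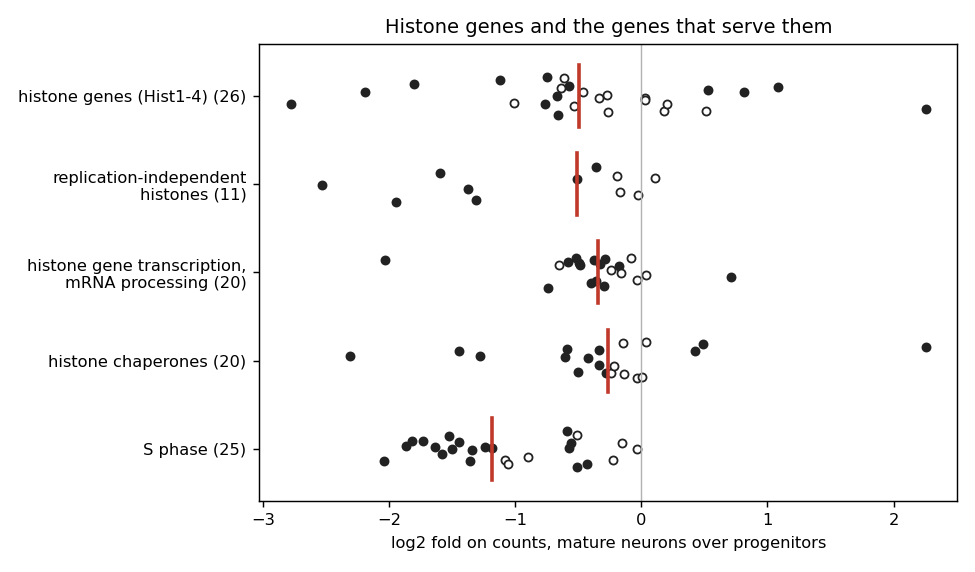
Each circle is 1 tested gene at its log2 fold on counts (mature neurons over progenitors), in rows for the histone genes and 4 related lists; filled circles have an edgeR adjusted p under 0.05 and red bars are medians. The S-phase row lies farthest to the left with a median of -1.18, beside -0.50 for the histone genes, which also hold folds of 1.09 and 2.25 on the right.

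Markers of other cells moved between the same populations. For comparison, edgeR called 28.8% of all genes tested higher in mature neurons and 30.0% lower. The 8 sustentacular markers summed to 4089 to 4494 in mature neurons and 2205 to 3365 in progenitors (CPM), with 4 of 8 called higher. The 8 leukocyte markers summed to 17.9 to 62.5 in mature neurons and 7.56 to 14.5 in progenitors (CPM), with 7 of 8 called higher (87.5%). The 6 erythroid markers overlapped, at 35.2 to 309 in mature neurons and 17.5 to 129 in progenitors (CPM), with 1 called higher (16.7%). Of the 6 immature neuron markers 5 were called lower (83.3%). The 6 summed to 1167 to 1728 CPM in mature neurons, against 3453 to 3987 CPM in progenitors. The 5 horizontal basal cell markers overlapped, at 13.3 to 20.6 CPM in mature neurons, against 14.4 to 17.0 CPM in progenitors. The part of these cells in the histone differences was not tested.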

How the data were processed

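Reads came from poly(A) libraries made with a TruSeq Stranded mRNA kit from FACS-sorted cells after TRIzol extraction, per the labels' protocols. Tools listed in the submitters' processing notes are bcl2fastq 2.18, STAR 2.6.1c and RSEM, with mm10 as the build. Not given in the sources used here are the strand option, the gene annotation and the way the TPM divided multi-mapping reads. The authors deposited whole-number read counts per gene, with 23.5% to 27.2% of each library in entries that name no gene, left out here; one of these holds multi-mapping reads (11.9% to 13.9%), apart from the genes. The authors also deposited TPM, scaled for transcript length and to a fixed total.

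Populations were compared with edgeR 4.0.16 (quasi-likelihood test, TMM, filterByExpr, Benjamini-Hochberg over all genes; R 4.3.3), fitted on the whole table and tested on simulated data. Folds are mature neurons over progenitors. Age was fitted as log2 of the postnatal day with population as a covariate. TPM was tested with limma 3.58.1 (trend) on log2(TPM + 1) for genes with at least 1 TPM in at least 3 libraries. The alternatives were DESeq2 1.42.0, no filter, a pseudocount of 0.1, each library left out, and P7 and P16 alone with age as a block. The ages serve as replicates, so the p-values reflect spread among libraries of different age, and nothing in the labels pairs the libraries.

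Transcript features were read from GENCODE M21 (GRCm38), which holds 54409 of the 54532 gene IDs and all 70 members, using the longest coding transcript of each member. Named members are the 15 highest in mean TPM, up to 12 called in each direction, the H1 genes, Hist1h2ba, Hist2h2be and up to 5 with TPM but no counts, and up to 4 genes of smallest p per related list. H1f0, H3f3a, H3f3b, Slbp, Omp, Hist1h3d, Hist1h4c, Hist1h4d and the members named for TPM calls without counts were added after their values were seen. The members and lists were chosen with earlier results of these data known. Symk, listed, was not analysed here.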

Additional observations from a re-analysis of the deposited data

Results flagged for a closer look

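Among 26 named members, the 4 progenitor libraries were checked for 1 library far from the other 3, on CPM where the member was tested and on TPM otherwise; chance picks out about 1 in 20 such groups. The P3 progenitor library stood apart each time. Hist2h2bb was at 1.82 CPM there, beside 2.52 to 2.56 CPM in the other progenitor libraries. Hist1h1e was at 3.74 CPM, beside 5.40 to 5.73 CPM, still above the 3 mature neuron libraries. Hist1h1b was at 1.54 TPM, beside 0.70 to 0.79 TPM. Hist1h2ap was at 4.66 TPM, beside 1.84 to 2.3 TPM, with 0 counts in every library. P3 is the youngest progenitor library, so the library and its age cannot be told apart.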

How the results depend on the processing

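The number of members called higher in mature neurons was 4 with edgeR on counts, 3 with DESeq2, 3 without the filter on low counts and 2 under each of the 3 TPM settings, and the number called lower was 9, 10, 12 and 17. With each library left out it was 3 to 4 higher and 6 to 11 lower. For the age slope edgeR called 0 genes, DESeq2 1500 genes and 2 members, the fit without a filter 770 genes and 1 member, and leaving out a library 0 to 986 genes and 0 to 2 members. Hist3h2a, at 0.03 on counts, reversed to -0.29 on log2(TPM + 1), with or without the filter, to -0.30 with a pseudocount of 0.1 and to -0.035 with age as a block, and ran from -0.052 to 0.10 with a library left out. Hist1h2bc, uncalled in every setting, was at -0.15 on all 3 TPM settings and from -0.15 to 0.15 with a library left out. Hist1h2ac, also uncalled, ran from -0.11 to 0.34. The cause was not tested. With P7 and P16 alone and age as a replicate block, 3 members were called higher and 9 lower, beside 4723 and 4608 of all genes; Hist1h2al, Hist1h4j, Hist2h2ab and Hist4h4 lost their calls, while Hist1h1c and Hist2h2bb were called lower. Those libraries share only an age. Hist2h2be, Hist3h2ba, Hist1h1e, Hist2h4, Hist1h2bm and Hist1h2ba kept direction and call in every setting that tested them, and Hist1h4k passed the filter in 4 of the 7 fits that left out a library. Low counts limit the members outside the 26 tested, and shared sequence limits 34 of the 70.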
